A study of Mus musculus with 66 samples.

Results

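Actin is the subunit of the thin filament, and tropomyosin is the coiled-coil dimer that lies along it and sets access of myosin and other proteins to its surface. Striated muscle uses the skeletal and cardiac α-actins in sarcomeres, smooth muscle uses its own α- and γ-actins, and every cell uses the cytoplasmic β- and γ-actins in its cytoskeleton. Myoblasts that stop dividing and fuse into myotubes are known to exchange cytoskeletal actin and tropomyosin for the sarcomeric ones, with cardiac α-actin as an early form in skeletal muscle.

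The 10 genes described here are the 6 conventional actins (Acta1, Actc1, Acta2, Actg2, Actb and Actg1) and the 4 tropomyosins (Tpm1, Tpm2, Tpm3 and Tpm4). They were picked by symbol from the 22489 genes of the expression table, and all 10 were found and passed the filter on low values. The study expressed histone H3 proteins fused to GFP in C2C12 cells, an established mouse skeletal myoblast line, to ask whether the H3 variant in chromatin alters gene expression before and after muscle differentiation. Messenger RNA was sequenced from 10 lines in 2 states, 20 libraries in all, with 1 library for each line and state. Unmodified C2C12 cells (WT) carried no GFP-H3. The other 9 lines each carried 1 doxycycline-inducible GFP-H3 transgene in addition to the cells' own H3 genes. In 3 of them the transgene encoded an H3.1/H3.2-type protein (H3.1, H3.2 or H3t), and in 6 it encoded an H3.3-type protein (H3.3, H3mm7, H3mm11, H3mm12, H3mm13 or H3mm16). The transgenic cells were selected with G418 under doxycycline and sorted for GFP, steps that are not described for WT. Each protein was represented by 1 line, so the line and its transgene cannot be told apart. Growth cells were kept in 20% fetal bovine serum and harvested before confluence, and differentiated cells were confluent cells held for 48 h in 2% horse serum. Histone ChIP-seq and 3′-end sequencing of the same series were not used here.

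Levels are FPKM, a measure of sequenced fragments scaled for transcript length and library size, so that levels can be compared between genes. Read depth is unknown, because the values carry no counts, and the precision of a single value cannot be stated. Between 13858 and 16865 genes were above 0 in the growth libraries and between 14254 and 16829 in the differentiated ones. WT stood apart from the transgenic lines for several of these genes, so results are also given over the 9 GFP-H3 lines. Marker genes were checked against the muscle label. All 4 tested markers of differentiated muscle were called higher after differentiation. Of all 10954 genes tested, 8.87% were called higher and 8.41% lower, which is the background for every marker list here. The muscle creatine kinase gene Ckm went from a median of 0.167 to 212 FPKM. The embryonic myosin gene Myh3 went from 0.192 to 153 FPKM. In growth Ckm did not pass 1.36 FPKM and Myh3 did not pass 0.536 FPKM. Both met the filter on low values through their differentiated libraries, so they could hardly be called lower. Of the 4 tested myoblast markers, Cdh15 (median 55.4 to 190 FPKM) and Des (272 to 712 FPKM) were called higher after differentiation. Myod1 (28.7 and 49.6 FPKM) and Myf5 (41.1 and 43.1 FPKM) were not called, and Pax7, at a median of 0.101 FPKM in growth, was too low to be tested. The smooth muscle genes Myh11 and Myocd did not pass 0.379 FPKM in any library, whereas Smtn of the same list had medians of 23.9 and 24 FPKM and was not called. The blood genes Hbb-b1 and Ptprc did not pass 0.0662 FPKM, Cd68 reached 3.9 FPKM and was not called, and the adipocyte genes Adipoq, Plin1 and Cidec stayed at or below 0.16 FPKM. The fibroblast gene Col1a1 had medians of 4.85 and 3.34 FPKM and was not called. It reached 104 FPKM in a growth library and 51 FPKM in a differentiated one, whereas Pdgfra and Dpt of the same list did not pass 1.02 FPKM. The endothelial gene Cdh5 was called lower, from a median of 2.47 to 0.399 FPKM, and Pecam1 and Kdr of its list did not pass 0.221 FPKM. In these bulk libraries, fewer cells of a type and less RNA per cell cannot be told apart.

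The members lie at scattered loci and none neighbours another. On the mm9 build, with GENCODE gene models, Acta1 (ENSMUSG00000031972.3) spans chr8:126415669-126418651 on the minus strand, Actc1 chr2:113873018-113879284 on the minus strand and Acta2 chr19:34315580-34329826 on the minus strand. Actg2 spans chr6:83462899-83486259 on the minus strand, Actb chr5:143664794-143668433 on the minus strand and Actg1 chr11:120207004-120209856 on the minus strand. Tpm1 spans chr9:66870397-66897213 and Tpm2 chr4:43527583-43536637, both on the minus strand, whereas Tpm3 (chr3:89876571-89904824) and Tpm4 (chr8:74658874-74677041) are on the plus strand. All 10 are annotated as protein coding. The actin coding sequences are close to each other. They shared between 82% and 88.6% of aligned bases, the most for the cytoplasmic pair Actb and Actg1 and 86.2% for the striated pair Acta1 and Actc1. The tropomyosins were less alike, from 67.7% for Tpm2 and Tpm4 to 77.2% for Tpm1 and Tpm4. At the gene level, the muscle and cytoskeletal splice forms that Tpm1, Tpm2 and Tpm3 are known to make were summed.

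The promoters of the striated actins are shown because those genes had the largest changes with differentiation, together with that of cytoplasmic Actg1, which shares a motif with them and was lower in every line, and that of Tpm2, which rose without it. Sequences are from RefSeq on GRCm38.p6 and run 5′ to 3′ over the 250 bases before the start site. Of the 10 members, 8 had an entry in the promoter table, with 9 start sites in all; Actb and Actg2 had none. Capitals mark an exact match to the CArG box, the element bound by serum response factor. The windows are chr8:123894776-123895025 for Acta1, chr2:114052876-114053125 for Actc1, chr11:120348496-120348745 for Actg1 and chr4:43523555-43523804 for Tpm2, all on the minus strand.
Acta1: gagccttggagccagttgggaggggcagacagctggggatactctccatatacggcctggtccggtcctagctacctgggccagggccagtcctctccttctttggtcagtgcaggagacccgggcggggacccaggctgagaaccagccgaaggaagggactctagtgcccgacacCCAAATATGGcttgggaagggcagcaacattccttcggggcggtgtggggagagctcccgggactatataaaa
Actc1: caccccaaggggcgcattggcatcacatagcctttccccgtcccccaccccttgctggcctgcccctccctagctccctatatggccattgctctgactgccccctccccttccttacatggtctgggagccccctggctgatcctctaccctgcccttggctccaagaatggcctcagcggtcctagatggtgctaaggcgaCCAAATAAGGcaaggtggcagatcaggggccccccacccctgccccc
Actg1: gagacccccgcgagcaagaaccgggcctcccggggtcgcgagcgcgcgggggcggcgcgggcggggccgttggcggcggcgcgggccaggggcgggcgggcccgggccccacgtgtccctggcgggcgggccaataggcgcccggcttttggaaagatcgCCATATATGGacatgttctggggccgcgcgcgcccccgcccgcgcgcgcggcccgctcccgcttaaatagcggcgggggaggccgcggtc
Tpm2: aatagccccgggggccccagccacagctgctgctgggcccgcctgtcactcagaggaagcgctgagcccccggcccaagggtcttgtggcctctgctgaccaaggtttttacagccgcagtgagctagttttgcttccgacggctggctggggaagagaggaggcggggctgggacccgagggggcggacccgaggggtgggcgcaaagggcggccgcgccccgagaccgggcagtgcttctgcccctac

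A CArG box was counted only as an exact match, CC, then 6 bases of A or T, then GG. This pattern, which reads the same way on both strands, was present in 3 of the 9 member windows and in 1.47% of all 32851 windows of the same length. Stretches 1 base off it were not counted in any window. Such stretches include ccctatatgg and ccttgtttgg in Acta2 and ccctatatgg in Actc1. The exact match began at position -73 from the start site in Acta1, -47 in Actc1 and -90 in Actg1. The MEF2 site was in none of the 9 windows and in 2.92% of all windows. CANNTG, the E-box letters, was in 7 of 9 and in 66.2% of all. CATTCC, searched on both strands like the others, was in 3 of 9 and in 12.6% of all, TATAAA in 1 of 9 and in 12.4% of all, and GGGCGG in 6 of 9 and in 32.7% of all. Of the 3 genes with an exact CArG box in this window, Acta1 and Actc1 rose with differentiation and Actg1 was lower in every line. A match describes the letters in the window and is no evidence of binding.

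The main comparison asked how each gene differed between differentiated and growing cells. The striated-muscle actins Acta1 and Actc1 went from minor to major transcripts, Acta2 and Tpm2 rose by less, and Actb, Tpm3 and Tpm4 fell. limma was fitted to log2(FPKM + 1) over all 10954 genes with a mean of at least 1 FPKM. Calls needed an adjusted p (Benjamini-Hochberg) under 0.05 together with a log2 difference of 1 or more. This scale understates the change of genes with low values. By this rule 4 of the 10 members were called higher, where 8.87% of all genes tested were, and 3 of the 10 were called lower, where 8.41% of all genes were. The median log2 difference was -0.05 over the members and 0.04 over all genes tested. The same 4 and 3 members were called over the 9 GFP-H3 lines alone.

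**Figure D1:**
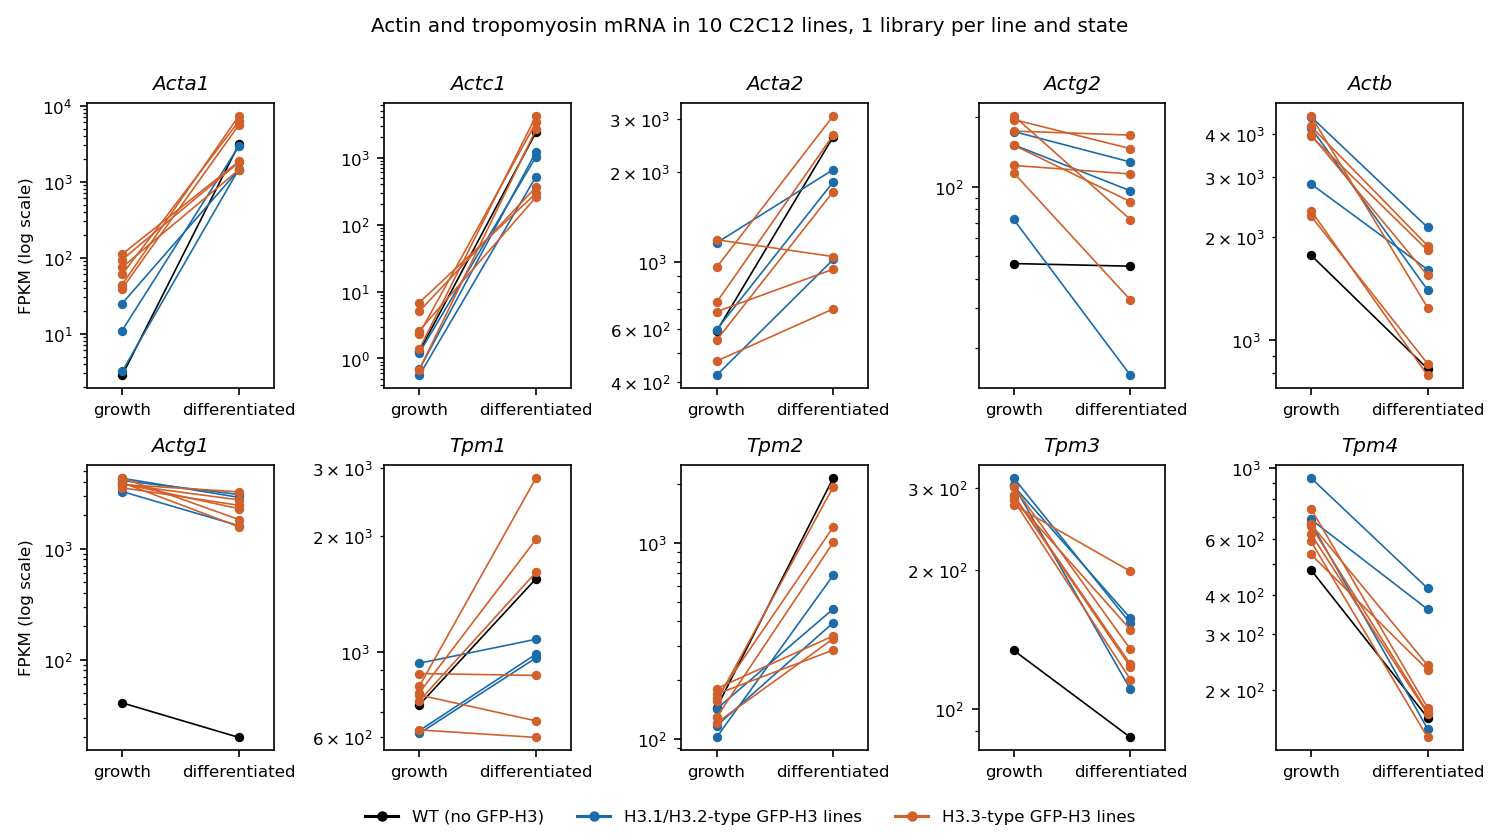
FPKM (log axis) of each gene in growth (left) and differentiated (right) libraries of 10 C2C12 lines, with 1 point per library and the libraries of a line joined. Acta1, Actc1 and Tpm2 rose in 10 of 10 lines, Actb, Actg1, Tpm3 and Tpm4 were lower in 10 of 10, and WT (black) lies far below the other lines for Actg1.

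Acta1 encodes skeletal α-actin, the main sarcomeric actin of adult skeletal muscle. Its growth level ran from 2.83 FPKM in WT through a median of 41.6 to 111 FPKM in H3mm7, a 39.3-fold spread among lines. After differentiation it ran from 1432 FPKM in H3mm11 through a median of 2389 to 7352 FPKM in H3mm12. The states did not overlap, and the spread among lines narrowed to 5.13-fold. Acta1 was higher in 10 of 10 lines, by 16.6-fold in H3mm7 to 1095-fold in WT, with a log2 difference of 6.55 ± 0.59 (SE; limma, adjusted p = 6.0e-09). The 3 lines with the smallest ratio, H3mm7, H3.3 (19.1-fold) and H3mm11 (19.2-fold), were also the 3 with the highest growth level, at 111, 93.9 and 74.4 FPKM.

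Actc1 encodes cardiac α-actin, which embryonic and regenerating skeletal muscle also uses. It was low in growth, from 0.56 FPKM in H3.1 through a median of 1.33 to 6.85 FPKM in H3mm7. After differentiation it ran from 257 FPKM in H3mm11 through a median of 1125 to 4205 FPKM in H3mm12. No differentiated library overlapped a growth library. Its log2 difference of 8.55 ± 0.51 (SE; limma, adjusted p = 1.06e-11) was the largest among the members. The ratio per line lay between 42.8 in H3mm7 and 3857 in H3mm16, and ratios to growth values below 1 FPKM are imprecise. H3.3, H3mm7 and H3mm11 had the 3 lowest differentiated levels, at 364, 293 and 257 FPKM, and the 3 highest growth levels. Of the cardiac markers, Tnni3 was called higher, from a median of 0.297 to 4.23 FPKM, Nppb was called lower, from 7.61 to 2.23 FPKM, and Myh6 and Nppa had medians of at most 0.323 FPKM in either state.

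Acta2 encodes smooth muscle α-actin, which is also made by myoblasts and myofibroblasts. It was already abundant in growth, at 421 FPKM in H3.2 through a median of 641 to 1189 FPKM in H3mm11, and ran from 701 FPKM in H3.3 through a median of 1786 to 3070 FPKM in H3mm12 after differentiation. The states overlapped. It was higher in 9 of 10 lines and lower in H3mm11 (1.14-fold), with a log2 difference of 1.19 ± 0.28 (SE; limma, adjusted p = 0.000891). This call was lost under quantile normalization, where the log2 difference was 0.95. The calponin gene Cnn1, a marker of smooth muscle, was called lower, from a median of 10.1 to 0.889 FPKM.

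Actg2 encodes the γ-actin of enteric smooth muscle. Its growth level was 46.6 FPKM in WT, a median of 152 and at most 203 FPKM in H3mm11, against 15.3 FPKM in H3.2, a median of 91.3 and 168 FPKM in H3mm16 after differentiation. The states overlapped widely. It was lower in 10 of 10 lines, but by as little as 1.03-fold in WT and as much as 4.73-fold in H3.2. The log2 difference of -0.80 ± 0.37 (SE; limma, adjusted p = 0.0723) did not pass. Over the 9 GFP-H3 lines it was -0.88, with limma adjusted p = 0.0414, and remained below the size asked for. A replicate block by line over 10 lines gave an SE of 0.22 and a limma adjusted p of 0.00554. In both of these fits the fall of Actg2 passed the test but not the size.

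Actb encodes cytoplasmic β-actin, a gene often used as a constant reference. It ran from 1771 FPKM in WT through a median of 3964 to 4519 FPKM in H3mm11 in growth, and from 788 FPKM in H3.3 through a median of 1472 to 2132 FPKM in H3t after differentiation. Within the 9 GFP-H3 lines the states did not overlap, and the growth level of WT lay inside the differentiated range. Actb was lower in 10 of 10 lines, by 1.78-fold in H3.1 to 3.64-fold in H3mm11, with a log2 difference of -1.31 ± 0.23 (SE; limma, adjusted p = 5.55e-05).

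Actg1 encodes cytoplasmic γ-actin, the partner of β-actin in the cytoskeleton. In the 9 GFP-H3 lines it ran from 3259 FPKM in H3.2 through a median of 3848 to 4325 FPKM in H3mm11 in growth, and from 1570 FPKM in H3.3 through a median of 2449 to 3238 FPKM in H3mm16 after differentiation. WT had 40.8 and 19.9 FPKM, far below every other library in both states. Actg1 was lower in 10 of 10 lines, by 1.16-fold in H3mm16 to 2.5-fold in H3.3. Over 10 lines the log2 difference was -0.75 ± 0.89 (SE; limma, adjusted p = 0.487), and over the 9 GFP-H3 lines it was -0.73 ± 0.14 (adjusted p = 0.000198). With line as a replicate block the 10-line difference had an SE of 0.12 and a limma adjusted p of 0.000105, so in both of those fits the change passed the test but not the size of 1.

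Tpm1 encodes α-tropomyosin, which makes striated, smooth and cytoskeletal forms by splicing. It ran from 614 FPKM in H3.1 through a median of 759 to 935 FPKM in H3t in growth, a 1.52-fold spread, and from 600 FPKM in H3.3 through a median of 1033 to 2828 FPKM in H3mm12 after differentiation, a 4.71-fold spread. The states overlapped. Tpm1 was higher in 7 of 10 lines and slightly lower in H3mm7 (1.17-fold), H3.3 (1.05-fold) and H3mm11 (1.01-fold). The log2 difference of 0.65 ± 0.23 (SE; limma, adjusted p = 0.0193) passed the test but not the size.

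Tpm2 encodes β-tropomyosin, a sarcomeric form of skeletal muscle that also has non-muscle splice forms. Growth levels were close together, from 102 FPKM in H3.2 through a median of 144 to 181 FPKM in H3mm7. Differentiated levels ran from 285 FPKM in H3mm11 through a median of 573 to 2142 FPKM in WT, and no library of one state reached the range of the other. Tpm2 was higher in 10 of 10 lines, by 1.68-fold in H3mm11 to 14.8-fold in WT, with a log2 difference of 2.25 ± 0.33 (SE; limma, adjusted p = 5.99e-06).

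Tpm3 encodes slow-muscle α-tropomyosin and several cytoskeletal forms. In the 9 GFP-H3 lines its growth level was the tightest of all members, from 276 to 315 FPKM, a 1.14-fold spread, with WT at 134 FPKM. Differentiated levels ran from 87 FPKM in WT through a median of 130 to 198 FPKM in H3mm12, and overlapped growth only through WT. Tpm3 was lower in 10 of 10 lines, by 1.39-fold in H3mm12 to 2.75-fold in H3.2, with a log2 difference of -1.03 ± 0.15 (SE; limma, adjusted p = 6.4e-06). Without the H3.2 line the difference was -0.98, just inside the size asked for, and the call was lost.

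Tpm4 encodes a mainly cytoskeletal tropomyosin. It ran from 479 FPKM in WT through a median of 662 to 931 FPKM in H3t in growth, and from 142 FPKM in H3.3 through a median of 173 to 418 FPKM in H3t after differentiation. The states did not overlap. Tpm4 had the largest fall of the 10 genes, a log2 difference of -1.64 ± 0.19 (SE; limma, adjusted p = 1.56e-07), and was lower in 10 of 10 lines by 1.92-fold in H3.1 to 4.46-fold in H3.2.

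**Figure D2:**
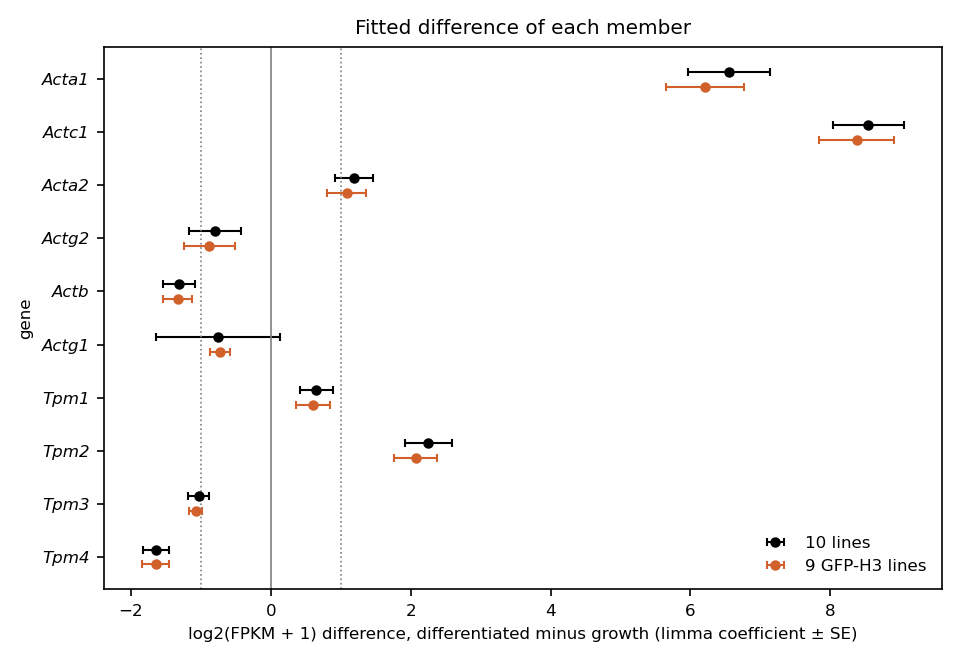
limma coefficients (log2(FPKM + 1), differentiated minus growth) with their SE for each gene over 10 lines (black) and over the 9 GFP-H3 lines (orange); dotted lines mark a difference of 1 in either direction. Leaving out WT moved the coefficients little, and shrank the SE of Actg1 from 0.89 to 0.14.

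The order of the levels changed with differentiation. Among the actins in growth, Actb (median 3964 FPKM) and Actg1 (3816 FPKM) led, with Actb above Actg1 in 7 of 10 libraries, so the order of those neighbours varied among lines. Actg1 was above Acta2 (641 FPKM) in 9 of 10 libraries, WT being the exception. Below Acta2 came Actg2 (152 FPKM), Acta1 (41.6 FPKM) and Actc1 (1.33 FPKM), and each stood above the next in 10 of 10 libraries. In differentiated cells 5 actins had medians within one order of magnitude, with medians of 2389 FPKM for Acta1, 2366 for Actg1, 1786 for Acta2, 1472 for Actb and 1125 for Actc1. Acta1 exceeded Actg1 in 6 of 10 libraries, Acta2 exceeded Actb in 6 and Actb exceeded Actc1 in 6, so these neighbours were not separated beyond the spread among lines. Among the tropomyosins the growth order was Tpm1, Tpm4, Tpm3 and Tpm2, and the differentiated order was Tpm1, Tpm2, Tpm4 and Tpm3. Tpm2 went from below Tpm3 in 9 of 10 growth libraries to above Tpm4 in 10 of 10 differentiated ones.

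Shares of the summed FPKM of each family put these changes on one scale. They are described with no test, because they are scores over the chosen genes. Acta1 and Actc1 together made 0.0486% of actin FPKM in H3.1, a median of 0.508% and 1.65% in H3mm7 in growth. After differentiation they made 23.1% in H3.1, a median of 45.9% and 61.1% in WT. The share rose in every line, by at least 23 percentage points. Actb and Actg1 together went from a median of 87.9% of actin FPKM, with 73.9% in WT as the lowest, to a median of 40.8%, with 9.38% in WT and 54.3% in H3.1 as the extremes. Over the 9 GFP-H3 lines the lowest growth share was 85.8% in H3mm11, and the lowest differentiated share was 22.5% in H3mm12. The WT shares of all actins include its very low Actg1, at 40.8 and 19.9 FPKM. Acta2 held a median of 8.9% in growth and 16% in differentiated cells. Within the striated pair, Acta1 made a median of 94.6% in growth and 70.5% after differentiation, and its part was lower in all 10 differentiated lines, by -7.89 percentage points in H3mm7 to -37.1 in H3t.

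For the tropomyosins, Tpm1 and Tpm2 together rose from a median of 49.5% of the family's FPKM (42.4% in H3.1 to 58.8% in WT) to a median of 83.1% (72.4% in H3.1 to 93.6% in WT). The growth and differentiated ranges did not overlap. The ratio of actin to tropomyosin FPKM had a median of 4.5 in growth and 4.49 in differentiated cells, although both sums varied. Actin FPKM ran from 5251 in H3.3 to 18989 in H3mm12 after differentiation, and tropomyosin FPKM from 1191 in H3.3 to 5127 in H3mm12. Together the 10 genes made a median of 1.55% of all FPKM in growth and 1.85% in differentiated cells, but the lines went both ways. The share fell in H3mm11 (1.9% to 0.975%), H3.3 (1.32% to 0.896%), H3mm7 (1.31% to 0.865%) and slightly in H3t. It rose in the other lines. Over the 9 GFP-H3 lines the median change was 0.038 percentage points.

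**Figure D3:**
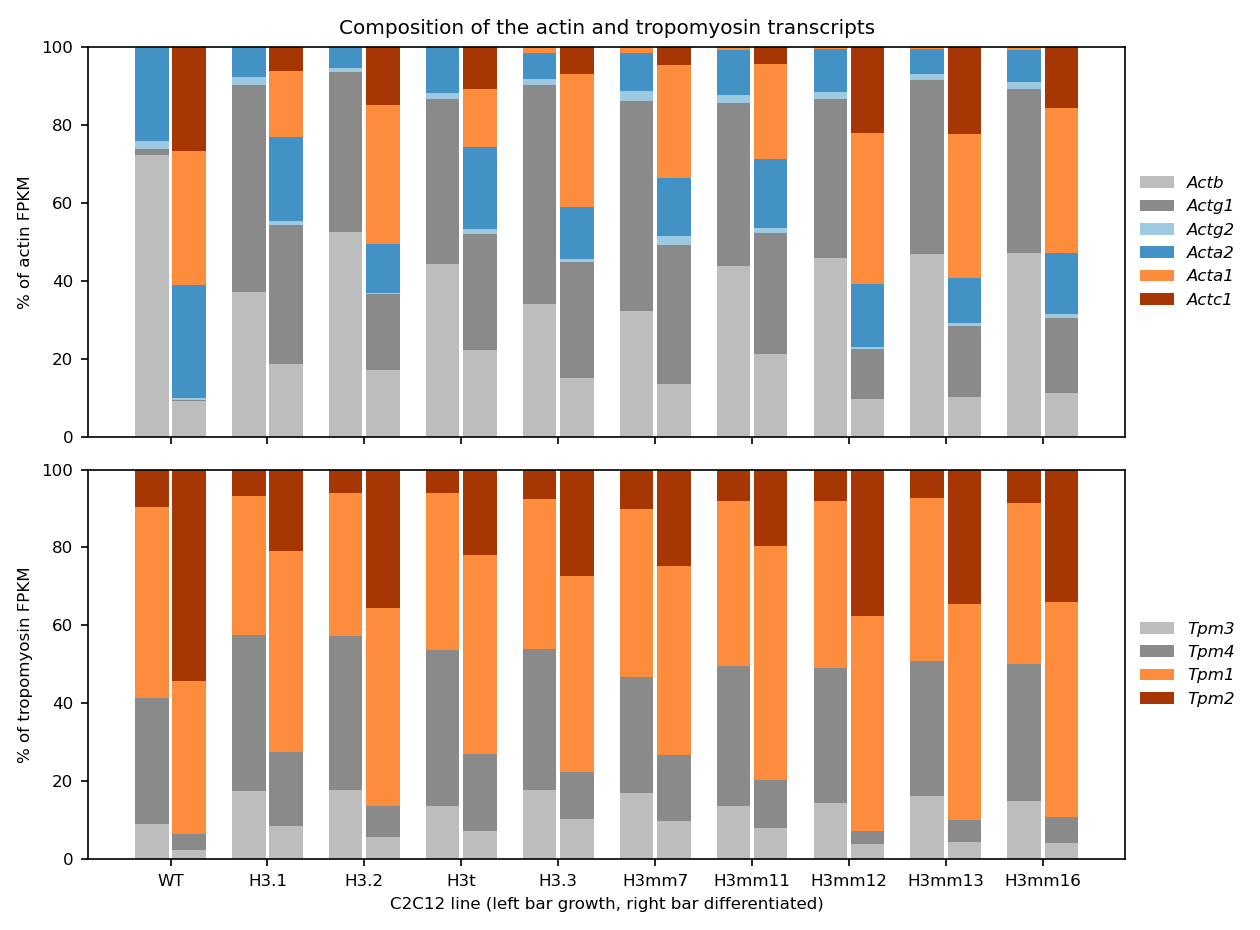
Percent of summed actin FPKM (top) and tropomyosin FPKM (bottom) from each gene in every line, with growth as the left bar and differentiated as the right bar of each pair. Striated actins (orange and brown) were at most 1.65% in growth and between 23.1% and 61.1% after differentiation, and Tpm1 with Tpm2 reached 72.4% to 93.6%.

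The fold spread among lines, WT included, widened after differentiation for every gene but Acta1 and Tpm3. The widening was not limited to striated-muscle genes, as Actg2 went from 4.37-fold to 11-fold and Tpm4 from 1.95-fold to 2.9-fold. The 11-fold spread of Actg2 rests on 1 low library, H3.2 at 15.3 FPKM, where the next line (H3.3) had 32.4 FPKM. Without WT the spread of Tpm3 widened too, from 1.14-fold to 1.8-fold, and only that of Acta1 narrowed. H3mm12, H3mm13 and H3mm16 had the 3 highest differentiated levels of Acta1, Actc1 and Tpm1. Their values were 7352, 5581 and 6252 FPKM for Acta1 and 4205, 3342 and 2627 FPKM for Actc1. H3.3, H3mm7 and H3mm11, which also carry H3.3-type proteins, had the 3 lowest levels of Actc1, Tpm1 and Tpm2, with Tpm2 at 325, 336 and 285 FPKM. All 6 of these lines carried H3.3-type proteins. With 1 mRNA library per line and state, these differences have no replicate check within the mRNA sequencing. The paper also ran RT-PCR amplicon sequencing with 3 biological replicates on chosen genes. Actc1 is in its primer list, and those values were not used here. Ckm was the gene whose differentiated levels were most like those of Acta1 (Pearson r = 0.969 over 10 libraries), and it ran from 94.9 FPKM in H3t to 607 FPKM in H3mm12. The part of the extent of differentiation in these values was not tested.

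**Figure D4:**
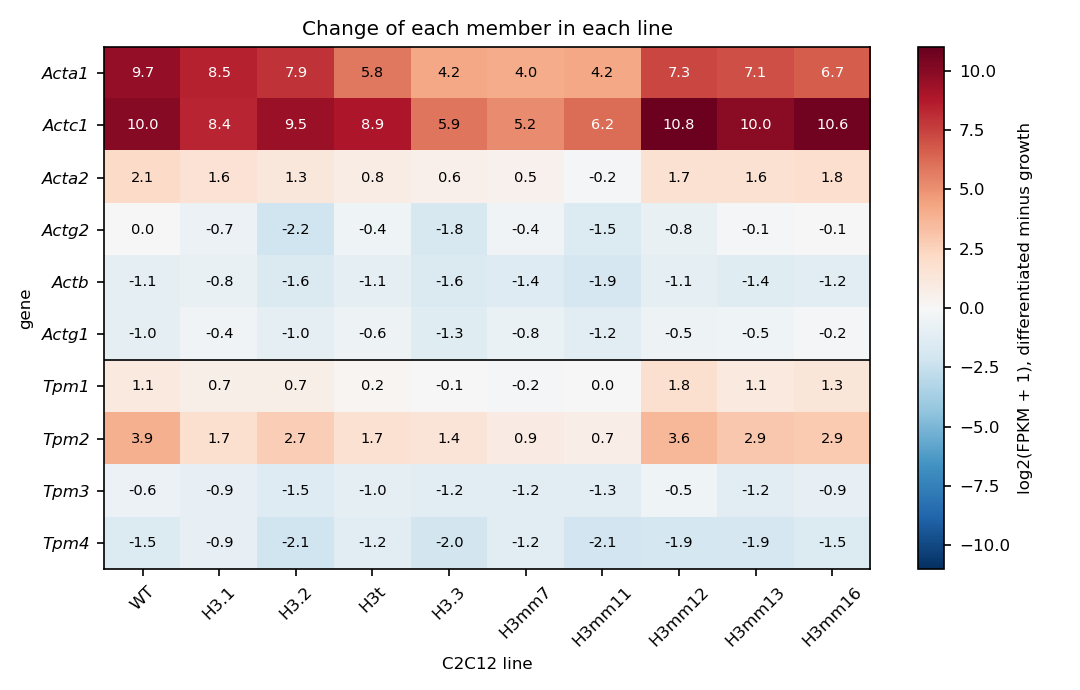
Heat map of the log2(FPKM + 1) difference, differentiated minus growth, for each gene (rows) in each line (columns); red is higher and blue is lower in differentiated cells, and the number in a cell is its value. The columns of H3.3, H3mm7 and H3mm11 hold the lowest values of Acta1, Actc1, Tpm1 and Tpm2, with Tpm1 below 0 in all 3, and 5 rows (Actb, Actg1, Actg2, Tpm3 and Tpm4) are below 0 in every line before rounding.

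The next comparison asked whether lines with an H3.3-type transgene differed from those with an H3.1/H3.2-type one. Among the differentiated libraries (6 lines against 3) no member was called, where 0.00919% of 10878 genes (1 gene) were. limma gave 0 members and 1294 genes with an unadjusted p below 0.05. The log2 differences of the members lay between -0.61 for Tpm4 and 0.83 for Acta1, with limma adjusted p from 0.467 to 0.998. Acta1 had 1436, 1463 and 2934 FPKM in the H3.1/H3.2-type lines and 1432 to 7352 FPKM, with a median of 3712, in the H3.3-type lines, and the groups overlapped. Its log2 difference of 0.83 ± 0.58 (SE) had a limma adjusted p of 0.589, and between 0.443 and 0.913 across 16 alternatives.

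In growth, Acta1 was called higher in the H3.3-type lines, the only 1 of 10 members called, where 0.509% of 10607 genes were called higher and 0.0566% lower. Its level was 3.18 FPKM in H3.1, 11 FPKM in H3.2 and 24.9 FPKM in H3t. In the H3.3-type lines it was 39.1 FPKM at the lowest, 67.3 at the median and 111 FPKM at the highest. The groups did not overlap. WT, at 2.83 FPKM, lay below every line of both types, so its level does not place it with either type. The log2 difference was 2.62 ± 0.53 (SE; limma, adjusted p = 0.0479), close to the threshold. The call was kept in 4 of 16 alternatives, with adjusted p between 0.0318 and 0.126, and leaving out the H3.1 line lowered the difference to 1.92. It was kept without the H3t line and lost without each of the other 8. Each of these lines is 1 library in this state.

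Actc1 went the same way, with 0.56 to 1.21 FPKM in the H3.1/H3.2-type lines and 0.681 to 6.85 FPKM in the H3.3-type lines, and the groups overlapped. Its log2 difference of 1.01 ± 0.41 (SE) had a limma adjusted p of 0.237. Tpm2 had 102 to 143 FPKM against 121 to 181 FPKM and a log2 difference of 0.34 ± 0.15 (SE; limma, adjusted p = 0.276). Acta1, Actc1 and Tpm2 were the 3 members with an unadjusted p below 0.05 in growth, as were 1879 of the 10607 genes tested by limma. The muscle regulator Myog, which is low in growing myoblasts, also varied among growth libraries, from 0.106 to 23.1 FPKM, and its part in the Acta1 values was not tested.

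**Figure D5:**
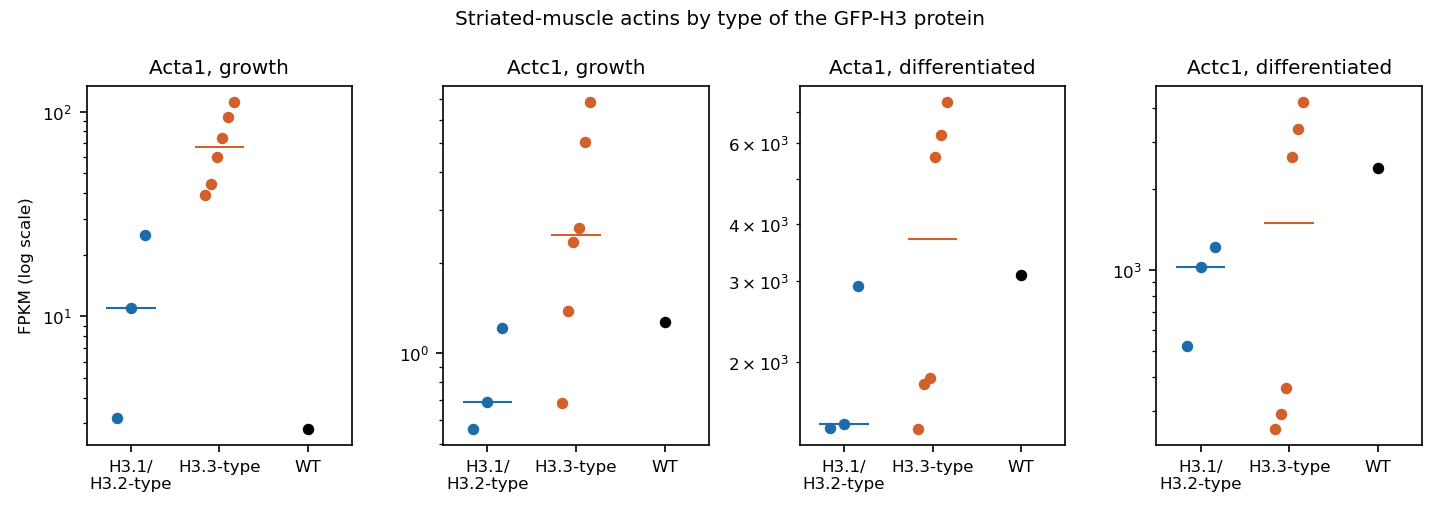
FPKM (log axis) of the striated actins by type of the GFP-H3 protein, in growth (left pair of panels) and differentiated cells (right pair), with 1 point per line and a bar at the median. In growth the 6 H3.3-type lines had 39.1 to 111 FPKM of Acta1 against 3.18 to 24.9 FPKM in the 3 H3.1/H3.2-type lines, and in differentiated cells the types overlapped for both genes.

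Whether the change with differentiation itself differed between the types was tested as an interaction over the 18 GFP-H3 libraries. limma called 0 of the 10 members and 0% of 10931 genes, with 999 genes and 1 member at an unadjusted p below 0.05. That member was Acta1, whose rise was smaller in the H3.3-type lines by a log2 value of -1.78 ± 0.82 (SE; limma, adjusted p = 0.536). With line as a replicate block its SE was 0.92 and its limma p 0.0821 (adjusted p = 0.378), so that it no longer passed without adjustment. The other members lay between -0.80 for Actc1 and 0.31 for Actg2.

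Genes whose products build, cap and turn over actin filaments were counted by the same calls, from lists set by gene function. Of 9 tested genes for thin filament length and the pointed end, 6 were called higher and none lower, against the 8.87% and 8.41% of all genes given above. The 6 called genes had growth medians from 0.0666 (Neb) to 0.489 FPKM (Xirp1). They met the mean of 1 FPKM through their differentiated libraries, so they could hardly be called lower. Tmod2, Tmod4, Nebl and Xirp2 of this list were low in both states and were not tested, so the count partly reflects the filter. The leiomodins Lmod2 and Lmod3, which nucleate and lengthen sarcomeric actin filaments, had the largest rises, from medians of 0.17 and 0.239 FPKM to 19.2 and 15.2 FPKM (log2 difference 4.36 ± 0.36 and 3.96 ± 0.36, SE). The median log2 difference of this list was 1.68. Of 10 tested α-actinins and crosslinkers, 3 rose and 3 fell, and without WT 2 of 9 rose and 3 fell. Actn2, among those that rose, had a growth median of 0.0238 FPKM and also met the filter through its differentiated libraries. Actn3, the fast-fibre α-actinin of the Z-disc, went from a median of 4.24 to 89 FPKM.

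The counts of the lists that follow stand against the same 8.41% of all genes called lower and 8.87% called higher, and with 5 to 14 genes a list each share rests on few calls. Of 5 barbed-end capping genes, 2 were called lower (1 without WT, chosen after seeing the data), Capg from 231 to 95.6 FPKM and Eps8 from 31.6 to 15 FPKM. Of 14 tested genes for monomer binding, severing and turnover, 2 fell and 1 rose. Cofilin 1 (Cfl1), which severs filaments, fell from a median of 2084 to 789 FPKM, and Coro1c, a coronin, fell from 87.4 to 33.6 FPKM. Of the 8 genes of the Arp2/3 complex, which nucleates branched filaments, only Arpc5 was called, from 162 to 66 FPKM. Of the 8 subunits of the chaperonin that folds actin, none was called by limma, as none reached the size asked for. Their log2 differences lay between -0.84 for Cct6a and -0.12 for Cct4, with a median of -0.51.

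Of 7 tested smooth-muscle-type actin-binding genes, 2 were called lower and none higher, with Tagln2 going from 865 to 146 FPKM and Cnn1 as given above. Of 10 tested genes of serum response factor, its cofactors and actin-responsive targets, 2 rose and 1 fell. The growth-factor target Ctgf fell from a median of 264 to 29.8 FPKM, whereas the immediate-early gene Egr1 rose from 8.64 to 57.5 FPKM. Srf itself was at 27.4 and 21.9 FPKM and did not pass (log2 difference -0.17 ± 0.16, SE).

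Likeness over the 10 differentiated libraries was measured by Pearson's r on log2(FPKM + 1), as a description. The points share their libraries, and any 2 genes that follow the extent of differentiation will be alike. Tpm2 was most like Myh3 (r = 0.991) and Ablim3 (r = 0.99), and Tpm1 was most like the slow troponin T gene Tnnt1 (r = 0.974) and Sh3pxd2a (r = 0.968). Actc1 was most like Tmem123 (r = 0.966) and Sh3pxd2a (r = 0.964). Among the members, r was 0.877 between Acta1 and Actc1, 0.929 between Actc1 and Tpm2 and 0.887 between Tpm1 and Tpm2. High values were not limited to striated members, as r of Acta2 was 0.891 with Tpm1, 0.789 with Actc1 and 0.788 with Tpm2.

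The other members had other neighbours. Actb was most like Dstn, which encodes the actin-depolymerizing factor destrin (r = 0.961), and Clec2d (r = 0.956). Acta2 was most like the coactivator gene Yap1 (r = 0.977) and Lbh (r = 0.975), and Actg2 was most like Csrp1 (r = 0.937) and 1700017B05Rik (r = 0.873). Tpm3 was most like Mrpl18 (r = 0.923) and Serf2 (r = 0.881), and Tpm4 was most like Rttn (r = 0.937) and Arhgap31 (r = 0.931). The neighbours of Actg1, Psme2 (r = 0.989) and Sumo2 (r = 0.988), were lowest in WT, and without WT their r fell to 0.684 and 0.473. Among the members, r between Acta1 and Tpm4 was -0.39.

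WT lay below all 9 GFP-H3 lines in growth for Acta1, Actb, Actg1, Actg2, Tpm3 and Tpm4. The gap to their median was 94.4-fold for Actg1, 15.6-fold for Acta1, 3.27-fold for Actg2, 2.25-fold for Actb, 2.16-fold for Tpm3 and 1.39-fold for Tpm4. In differentiated cells WT was below the range for Actg1 (123-fold under the median) and Tpm3 (1.55-fold), and above it for Tpm2. The members also differed in how far their sequence is unique. Of the 31-base words in the exons of Actg1, 67.5% occurred at more than 1 place in the mm9 genome, against 34.5% for Tpm4, 26.9% for Tpm3 and 26.5% for Actb. The other 6 members had between 0.148% and 5.1%. Words shared with another member made at most 5.3% of a gene, in Actb. Reads from such words can be assigned to more than 1 place, and their part in the gap between WT and the other lines was not tested. The sum of all FPKM was also lower in WT, at 409319 in growth and 465247 in differentiated cells, against 583613 to 894105 in the other libraries.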

How the data were processed

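mRNA was reverse-transcribed with an oligo dT primer and sequenced in 20 libraries. The authors aligned reads to mm9 with TopHat2 2.0.8, and the deposited FPKM values came from Cufflinks 2.0.1 (Cuffdiff). The paper states default parameters for Cuffdiff. It does not describe separately how reads that map to several places were treated. The labels name these tools for all libraries. The paper's methods describe the mapping for the GFP-H3 lines. Columns named H3mmT were read as the H3t line. FPKM was not normalized further. limma 3.58.1 (trend and robust settings, R 4.3.3) was fitted to log2(FPKM + 1) over genes whose mean reached 1 FPKM, and p-values were adjusted by the Benjamini-Hochberg method over all genes tested. Lines were the units of the type comparisons within a state. The main differentiated against growth and interaction fits took libraries as units, without pairing those of a line. Their SE therefore include the spread among lines. The members and lists were chosen with earlier results of these data known. Named genes were all members, the 2 called genes of largest difference per list and the 2 genes most like each member; other genes were named after their values were seen. Some genes that this rule names are not reported here. Same-line libraries pair by cell line, and their deviations from the state means correlated at 0.273 to 0.475 over 10954 genes in the GFP-H3 lines and at 0.877 in WT (0.205 to 0.444 with WT left out). Alternatives were the pseudocount, the filter, the scaling, limma settings, the line block and left-out lines. The script was tested on simulated data. Values without WT for levels, lists, likeness and the cytoplasmic actin share were added after seeing the data. Exon words of 31 bases were counted on both strands of the mm9 genome. No error or interval covers a single library.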

Additional observations from a re-analysis of the deposited data

Results flagged for a closer look

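In 6 of 38 sets of 10 values (levels and changes of each gene, and family shares and ratios per state), 1 library stood apart from the others by Dixon's gap criterion (gap over range above 0.466). Chance alone sets apart about 1 in 20 sets, and the sets share their libraries. All 6 were the WT line at the low end. On the log2(FPKM + 1) scale, Actg1 in WT was 5.38 in growth, where the next line (H3.2) was at 11.67, and 4.39 in differentiated cells, where the next line (H3.3) was at 10.62. Tpm3 in WT growth was 7.08, against 8.11 in the next line (H3mm12). The share of actin FPKM from Actb and Actg1 in growth was 73.9% in WT and 85.8% in the next line (H3mm11). The ratio of actin to tropomyosin FPKM was 1.65 in WT growth and 2.28 in differentiated WT, where the next lines had 3.99 (H3mm7) and 3.7 (H3mm12).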

How the results depend on the processing

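The differentiated against growth counts, 4 members higher and 3 lower, were the same under each other pseudocount, filter, scaling and limma setting and without WT, except that quantile normalization gave 3 higher (Acta2 lost) and leaving out the H3.2 line gave 2 lower (Tpm3 lost). With line as a replicate block the counts stayed at 4 and 3, 7 members in all, and no member's call changed; the block gave 3 genes, none a member, for the state by type interaction, where 0 were called without it. For the types in growth, the 1 member called (Acta1) became 0 with a pseudocount of 0.1 or 0.01 FPKM, without a filter and when the mean had to reach 5 FPKM, and leaving out a line gave 0 to 1. The call was kept without H3t and lost without each of the other 8 lines. All genes called there numbered 60, and 26 to 96 across alternatives. The lone gene called between types in differentiated cells became 0 to 4. The size of a difference was followed under alternatives for differentiated against growth in all 10 members. Between types it was followed for Acta1, Actc1 and Tpm2 in growth, and for Acta1 in differentiated cells and in the interaction. Among these 260 values none changed sign, and 14 lost a call. The signs of the other type and interaction differences were not checked. Without WT the barbed-end capping list had 1 gene lower in place of 2, the thin filament list 5 higher in place of 6, and the crosslinkers 2 higher of 9 tested in place of 3 of 10, all checked after seeing the data. FPKM limits what can be said of low values: no count stands behind them, and the growth values of Actc1 lay near 1 FPKM.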
